A study of Rattus norvegicus with 40 samples.

Results

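The alpha-macroglobulins and acute-phase proteins described here are 10 genes, A2m, A1i3, Pzp, Orm1, Hp, Crp, Cp, Hpx, Itih3 and Itih4, taken by symbol from the 17337 genes counted in 40 rat liver libraries. All animals were male Fischer 344 rats with no engineered allele, 7 weeks old at the start. Treated rats received diethylnitrosamine (DEN), a carcinogen that hepatocytes activate, at 50 mg/kg intraperitoneally once a week: for 8 weeks (non-tumoral liver, NT, of 4 rats), for 14 weeks (NT and 2 nodules from each of 4 rats), or for 14 weeks followed by 6 weeks without DEN, called 20 weeks here (NT and 2 nodules from each of 4 other rats). The no DEN controls were 4 untreated rats of matching age at each of 8, 14 and 20 weeks.

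During inflammation, cytokines of the interleukin-6 family and glucocorticoids make hepatocytes raise the secretion of some plasma proteins, the positive acute-phase reactants, and lower that of others, the negative reactants. In the rat, A2m is a strongly inducible positive reactant that is scarce in the healthy adult, whereas A1i3 (alpha-1-inhibitor 3), a protease inhibitor of the same alpha-macroglobulin family, is abundant in normal plasma and falls. Orm1, Hp, Cp, Hpx, Itih3 and Itih4 are generally positive reactants, while Crp is high in the rat at rest and changes little.

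The promoters of A1i3 and its relative Mug1 are shown because these genes fell together in nodules, and those of Orm1, Crp and Itih4 because they were the members with a match to an acute-phase motif. All are RefSeq windows of 300 bases on GRCr8 laid around a gene start; the annotated genes Mug1l1 and Mug1 begin slightly upstream of the start their windows were laid on. RefSeq lists the name A1i3 as an alias of both Mug1l1 and Mug1; Mug1 had a row of its own in the count files, so the Mug1l1 promoter is given for A1i3. A promoter was found by symbol for 7 of the 10 members. Capitals mark a match to TTCNNNGAA (the form bound by STAT factors), CTGGGAA (a type 2 interleukin-6 element) or TTNNGNAAT (a C/EBP-type sequence), each read on both strands.
Mug1l1 (chr4:156652123-156652422, plus strand): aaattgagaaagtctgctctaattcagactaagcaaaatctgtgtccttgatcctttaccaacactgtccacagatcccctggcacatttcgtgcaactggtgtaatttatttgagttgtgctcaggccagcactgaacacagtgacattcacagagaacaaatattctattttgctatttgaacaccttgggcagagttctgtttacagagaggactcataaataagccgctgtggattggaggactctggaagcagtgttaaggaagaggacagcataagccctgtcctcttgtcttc
Mug1 (chr4:156748145-156748444, plus strand): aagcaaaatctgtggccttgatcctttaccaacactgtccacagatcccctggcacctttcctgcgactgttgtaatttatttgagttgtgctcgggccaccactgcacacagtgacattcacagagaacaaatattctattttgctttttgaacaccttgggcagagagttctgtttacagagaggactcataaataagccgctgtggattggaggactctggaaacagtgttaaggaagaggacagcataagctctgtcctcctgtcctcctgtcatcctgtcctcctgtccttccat
Orm1 (chr5:81788259-81788558, plus strand): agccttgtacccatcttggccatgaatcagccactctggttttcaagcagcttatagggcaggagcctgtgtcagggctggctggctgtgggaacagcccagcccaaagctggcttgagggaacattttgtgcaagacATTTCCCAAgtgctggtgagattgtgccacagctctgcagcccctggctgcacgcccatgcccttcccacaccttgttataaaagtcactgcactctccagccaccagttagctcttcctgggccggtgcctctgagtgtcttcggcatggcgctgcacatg
Crp (chr13:87693812-87694111, plus strand): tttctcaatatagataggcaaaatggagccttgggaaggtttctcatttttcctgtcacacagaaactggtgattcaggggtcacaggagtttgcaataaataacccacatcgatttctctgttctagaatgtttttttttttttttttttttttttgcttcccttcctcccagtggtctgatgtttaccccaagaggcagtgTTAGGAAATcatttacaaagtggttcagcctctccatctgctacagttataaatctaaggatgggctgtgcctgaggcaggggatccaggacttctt
Itih4 (chr16:6086735-6087034, plus strand): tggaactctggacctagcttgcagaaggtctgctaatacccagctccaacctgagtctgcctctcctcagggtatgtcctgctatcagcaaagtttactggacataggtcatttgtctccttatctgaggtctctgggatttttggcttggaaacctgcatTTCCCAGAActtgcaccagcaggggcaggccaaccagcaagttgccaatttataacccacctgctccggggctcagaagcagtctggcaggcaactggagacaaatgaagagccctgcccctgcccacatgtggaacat

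The Mug1l1 and Mug1 windows were identical at 257 of 270 aligned bases (95.2%), and the Mug1l1 and Mug2 windows at 278 of 300 (92.7%). Orm1 and Crp each held 1 match to TTNNGNAAT, and Itih4 held matches to TTCNNNGAA and CTGGGAA that overlap in the same run of bases. The windows of Pzp, Cp, Hpx, Itih3, Mug1l1, Mug1 and Mug2 held none of these letters. Among all 33469 promoters of this length, 8.87% held TTCNNNGAA, 11.3% CTGGGAA and 12.3% TTNNGNAAT, so single matches are common. These windows are short, and a match is a description of letters only.

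Libraries held 20528515 to 160622633 counted read pairs (median 30477421), and levels are given as counts per 1000000 counted pairs (CPM) scaled by the trimmed mean of M-values (TMM). The scaling matters for these genes. TMM factors averaged 0.82 in the no DEN livers of 14 weeks against 1.11 in NT and 1.19 in nodules of that time, so that scaling by library totals alone raised the median difference of all genes from no DEN by 0.42 on the log2 scale in NT and by 0.57 in nodules at 14 weeks. The 10 members together took 5.05 to 5.61% of all counted pairs in no DEN liver of 14 weeks, 4.12 to 5.65% in NT and 3.37 to 5.17% in nodules. All folds below are TMM folds relative to the bulk of genes unless library totals are named. In bulk tissue, fewer hepatocytes and less RNA per hepatocyte cannot be told apart.

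A1i3 was the member furthest below the controls in NT liver at 8 and 14 weeks and in nodules at 14 weeks. In the 4 no DEN rats of 8 weeks A1i3 stood at 10473, 10951, 11686 and 10102 CPM, and in NT liver after 8 weeks of DEN at 5549, 4933, 5691 and 5005 CPM. All 4 treated rats lay at about the same level, well below every control. The log2 fold change was −1.02 (SE 0.09, edgeR adjusted p = 3.12e-05), just past the limit of 1 on the log2 scale and an adjusted p of 0.01 used for NT liver. A1i3 was the only 1 of 9 members tested to be called there, against 7.91% of the 10812 genes tested (0.62% called lower and 7.29% higher). By library totals the value was −0.82 and the call was lost. It was also lost with upper-quartile scaling (−0.93), without F rats (−0.99) and without any 1 of F10, H07 or H18 (−0.98 to −0.99), where the size fell under the limit.

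At 14 weeks A1i3 read 11030, 11767, 11073 and 11643 CPM without DEN and 4402, 3902, 3757 and 4298 CPM in NT liver. In the 8 nodules it ranged from 1587 to 3574 CPM with a median of 2542 CPM. The 3 sets did not overlap: nodules lay below NT liver, and NT liver lay below the controls. The log2 fold change from no DEN was −1.46 (SE 0.10, edgeR adjusted p = 3.34e-06) in NT liver and −2.17 (SE 0.12, fold 0.222, edgeR adjusted p = 4.93e-06) in nodules. By library totals both remained past their limits, at −1.04 and −1.61.

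At 20 weeks, when DEN had been stopped for 6 weeks, A1i3 was nearer to the controls in NT liver. The no DEN rats gave 9505, 10978, 10941 and 11449 CPM and NT liver 8608, 7121, 7802 and 5317 CPM, the last value being that of rat H28. All 4 NT samples still lay under every control, but the log2 fold change of −0.57 (SE 0.14, edgeR adjusted p = 0.0134) did not pass. In nodules A1i3 ranged from 1034 to 6511 CPM (median 3690), at −1.57 (SE 0.33, edgeR adjusted p = 0.00308).

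The A1i3 difference from untreated rats was tested between times. It was larger at 14 than at 8 weeks by −0.44 on the log2 scale (SE 0.12, edgeR adjusted p = 0.0306, 8.96% of 11219 genes called, 4.8% downward and 4.16% upward), a call lost by library totals (−0.21, edgeR adjusted p = 0.137), with all 8 groups in one fit (edgeR adjusted p = 0.387) and without any 1 of 9 rats (edgeR adjusted p from 0.0502 to 0.0660). It was smaller at 20 than at 14 weeks by 0.90 (SE 0.17, edgeR adjusted p = 0.0202), when 0.738% of 11245 genes were called, and by library totals this was 0.69 (edgeR adjusted p = 0.0197). The A1i3 call was lost with all 8 groups in one fit (edgeR adjusted p = 0.182) and without F03, H10, H21 or H22 (edgeR adjusted p from 0.0503 to 0.0545). No other member passed either test, although without F06 5 members passed the first (A1i3, Orm1, Hp, Itih3 and Itih4) and 4 the second (A1i3, Pzp, Hp and Hpx). The shares of all genes above are those of the fits with all rats, so these counts without F06 have no share beside them. In nodules the A1i3 difference between 20 and 14 weeks was 0.60 (SE 0.37), and none of the 9 members was called, with 0.0862% of 11607 genes called (0.00862% upward and 0.0775% downward).

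**Figure D1:**
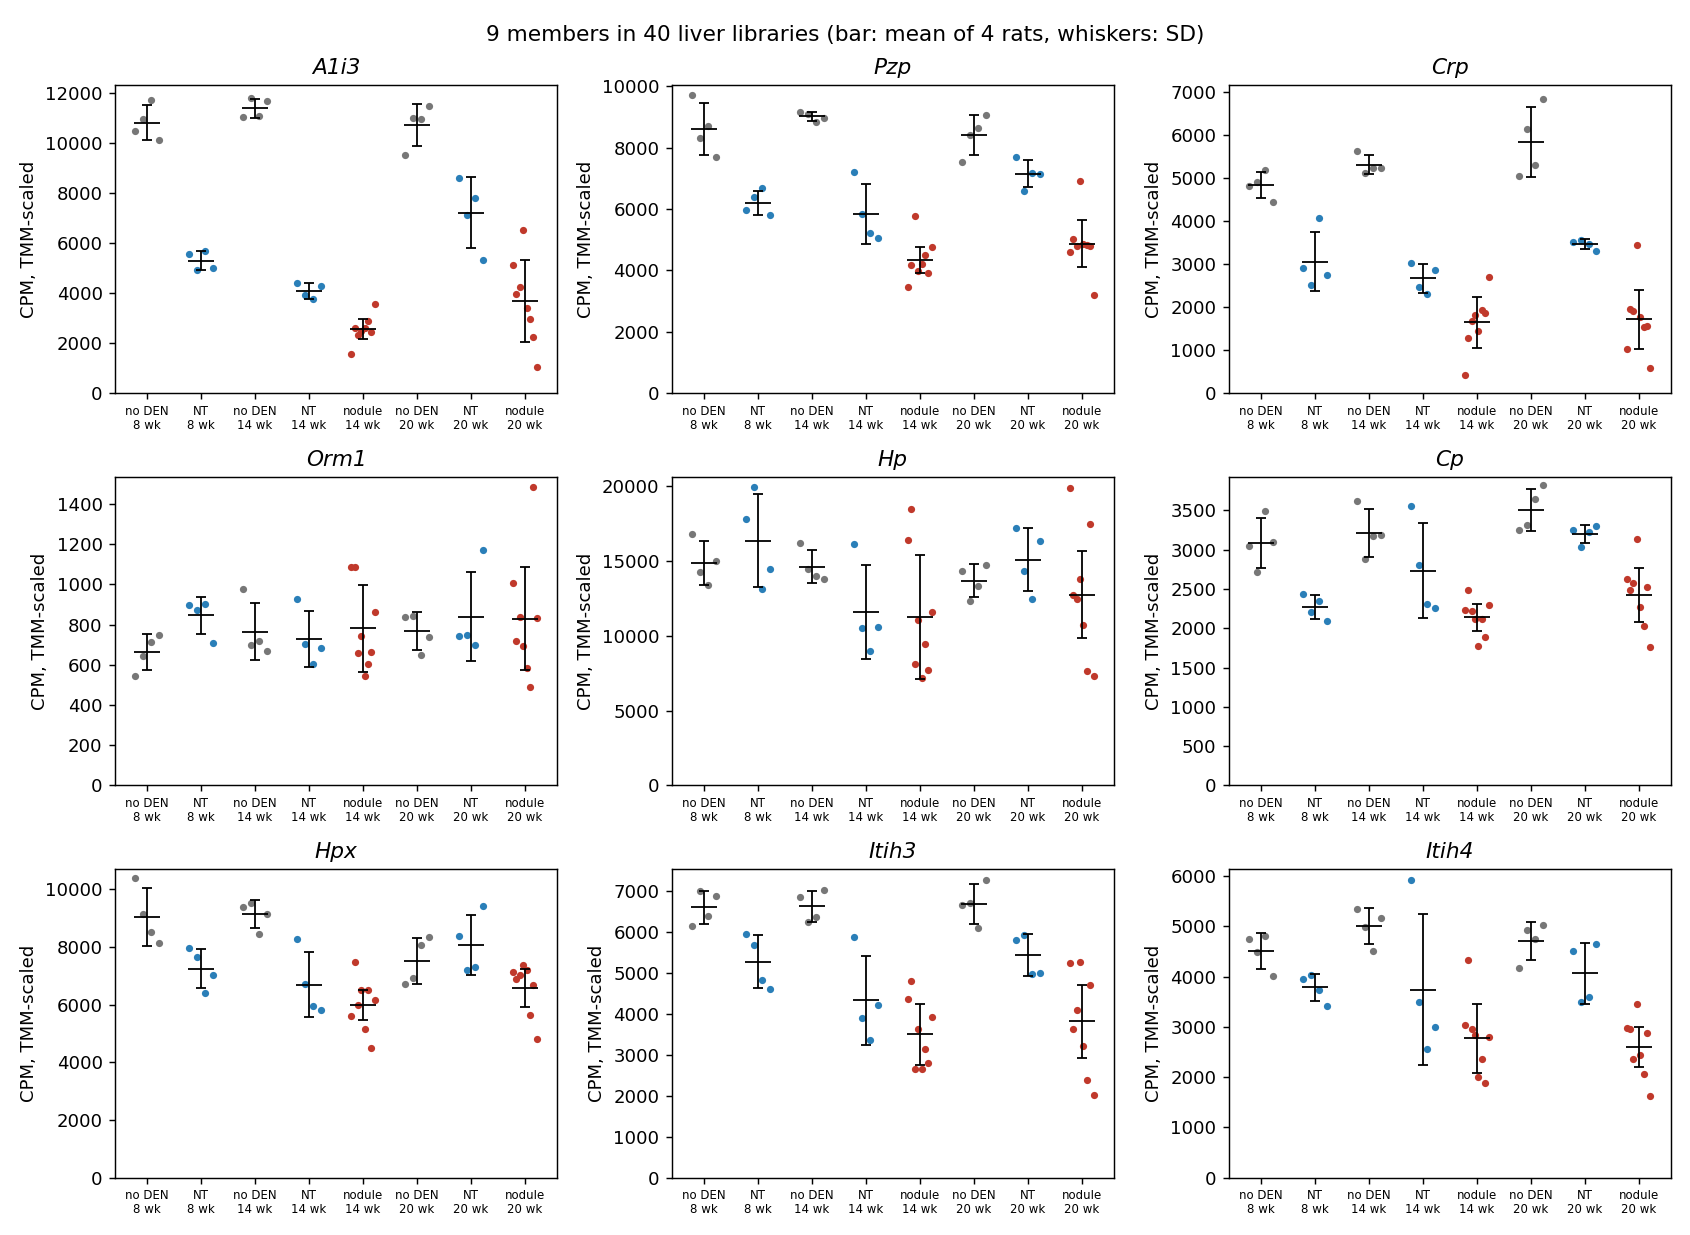
TMM-scaled CPM (vertical axes, from 0) of 9 members in the no DEN (grey), NT (blue) and nodule (red) libraries of 8, 14 and 20 weeks (horizontal axes); each point is a library, the bar the mean of 4 rats and the whiskers their SD. A1i3 in NT liver sits between 3757 and 5691 CPM at 8 and 14 weeks and between 5317 and 8608 CPM at 20 weeks, whereas Orm1 overlaps between no DEN liver and NT liver at all 3 times.

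Mug1 and Mug2, murinoglobulins that are close relatives of A1i3, were lower too, by smaller amounts. Mug1 averaged 5386 ± 43.1 CPM (SD, n = 4) without DEN at 14 weeks, 3187 ± 579 CPM in NT liver and 2064 ± 267 CPM in nodules. In nodules the log2 fold change was −1.40 (SE 0.10, edgeR adjusted p = 1.64e-05) for Mug1 and −1.27 (SE 0.11, edgeR adjusted p = 4.46e-05) for Mug2, and at 20 weeks it was −1.23 for both. Within a library the ratio of A1i3 to Mug1 reads, which no scaling changes, fell from 2.11 ± 0.0755 (SD, n = 4) in no DEN liver of 14 weeks to 1.30 ± 0.152 in NT liver and 1.25 ± 0.0599 in nodules. At 20 weeks it was 1.95 ± 0.123, 1.79 ± 0.0603 and 1.5 ± 0.209. Reads that fit several of these related genes were not counted by the authors, so the split between A1i3, Mug1 and Mug2 is uncertain.

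Pzp, pregnancy zone protein, is another large alpha-macroglobulin that traps proteases. Without DEN it stood at 9163, 9102, 8823 and 8967 CPM at 14 weeks, and in NT liver at 7219, 5847, 5215 and 5058 CPM. The groups did not overlap, yet the log2 fold change of −0.61 (SE 0.12, edgeR adjusted p = 0.00186) was under the limit on size, and by library totals it was −0.19. In nodules of 14 weeks Pzp ranged from 3455 to 5757 CPM (median 4191), at −1.07 (SE 0.10, edgeR adjusted p = 4.92e-05). In nodules of 20 weeks it ranged from 3197 to 6918 CPM (median 4806), at −0.80 (SE 0.17, edgeR adjusted p = 0.00315), a call that library totals ended (−0.32).

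A2m was close to absent in every library and was too low for the test across all genes. The 12 no DEN libraries held 0 or 1 A2m read each: 1 read in 116723713 pairs at 8 weeks, 1 in 132120019 at 14 weeks and 0 in 99840213 at 20 weeks, a floor of 3.00 reads per 100000000 pairs when 3 reads are taken as the limit of a count of 0 (exact Poisson limit 3.69). All 24 treated libraries of 14 and 20 weeks held at least 1 read. NT liver held 3, 7, 4 and 5 reads at 14 weeks and 5, 3, 23 and 20 reads at 20 weeks. The 23 came from the library of H26, which was the deepest. The 20 came from H28, whose TMM-scaled 0.579 CPM was the highest A2m level of all libraries. The 8 nodules of 14 weeks held 1 to 15 reads (median 3) and those of 20 weeks 1 to 11 (median 5.5).

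Per 100000000 counted pairs these sums were 15.5 (95% exact Poisson interval 9.34 to 24.2) in NT liver and 20.2 (14.8 to 26.9) in nodules at 14 weeks, and 19.2 (14.3 to 25.2) and 18.7 (13.6 to 25) at 20 weeks. Intervals and floors cover counting error only. These rates, and the ratios and folds that follow, are by library totals. TMM factors were higher in treated than in control libraries, so TMM scaling would make the ratios and folds smaller. At 14 weeks the rate ratio to the single control read was 20.5 (95% interval 3.26 to 852) for NT liver and 26.7 (4.56 to 1077) for nodules. At 20 weeks the summed rate was 6.38-fold the floor of no DEN liver in NT liver and 6.21-fold in nodules, that floor being 3 reads over the control group. All 4 contrasts gave the smallest p that 4 rats against 4 can reach (two-sided exact permutation test, p = 0.0286, 0.05 after Benjamini-Hochberg adjustment over 7 contrasts). After 8 weeks of DEN, NT liver held 0, 1, 3 and 1 reads, which was not distinguishable from the controls (exact permutation p = 0.257), and nodules and NT liver were not distinguishable at 14 weeks (exact p = 0.743) or 20 weeks (exact p = 0.914).

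**Figure D2:**
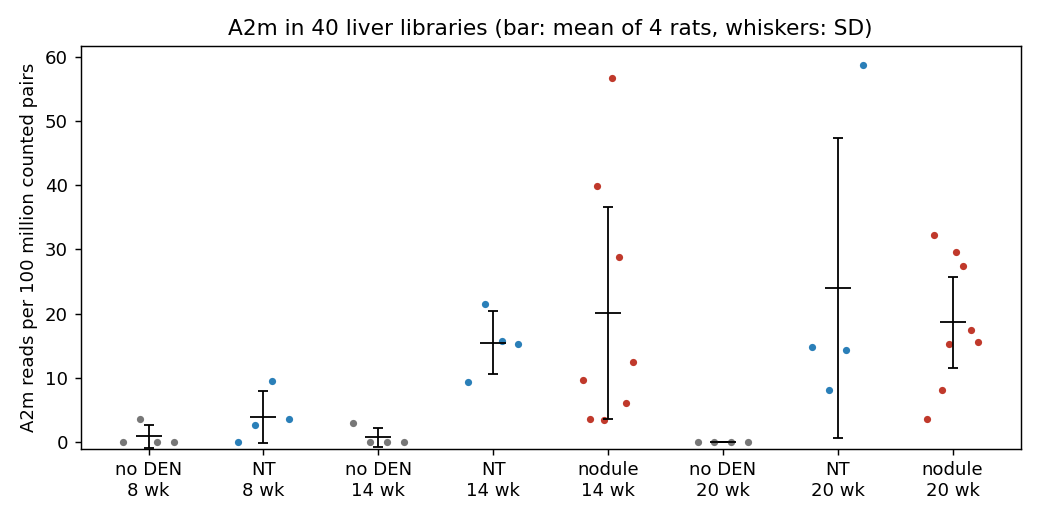
A2m reads per 100000000 counted pairs (vertical axis) in each of the 40 libraries by group (horizontal axis), grey for no DEN, blue for NT and red for nodules; the bar is the mean of 4 rats and the whiskers their SD. The controls lie at 0 in 10 of 12 libraries, while all NT and nodule libraries of 14 and 20 weeks lie above 0.

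Crp, a pentraxin that binds phosphocholine on microbes and damaged cells, followed A1i3 among the members at 8 and 14 weeks. At 20 weeks it lay further below the controls than A1i3, in NT liver and in nodules. Without DEN it stood at 4812, 4921, 5197 and 4453 CPM at 8 weeks and at 5641, 5121, 5241 and 5244 CPM at 14 weeks. NT liver gave 2909, 2517, 4063 and 2756 CPM at 8 weeks and 3033, 2477, 2317 and 2862 CPM at 14 weeks. Every NT sample was below every control of its age. At 14 weeks the log2 fold change was −0.97 (SE 0.11, edgeR adjusted p = 4.36e-05), just short of the limit on size. It passed without rat F06 (−1.05).

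At 20 weeks Crp was the member furthest below the controls in NT liver, at 3519, 3566, 3478 and 3316 CPM against 5061, 6140, 5299 and 6845 CPM. The log2 fold change was −0.74 (SE 0.11, fold 0.598, edgeR adjusted p = 0.00125), under the limit on size, and by library totals it was −0.52. In nodules Crp ranged from 427 to 2714 CPM (median 1751) at 14 weeks and from 595 to 3449 CPM (median 1662) at 20 weeks. Against no DEN it fell by 1.71 (SE 0.24, edgeR adjusted p = 0.000426) and by 1.75 on the log2 scale (SE 0.28, edgeR adjusted p = 0.000823), and by library totals it was also called, at −1.14 and −1.29.

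Orm1, alpha-1-acid glycoprotein, and Hp, haptoglobin, which binds free hemoglobin, did not fall past a limit in any contrast. Orm1 stood at 976, 698, 716 and 671 CPM without DEN at 14 weeks and at 928, 703, 603 and 684 CPM in NT liver, with overlapping ranges. In nodules it ranged from 546 to 1088 CPM (median 703) at 14 weeks and from 488 to 1484 CPM (median 774) at 20 weeks. The TMM log2 fold changes in nodules were 0.00 (SE 0.21, edgeR adjusted p = 0.993) and 0.04 (SE 0.20, edgeR adjusted p = 0.867). By library totals Orm1 passed the limits, at 0.56 (edgeR adjusted p = 0.0278) and 0.55 (edgeR adjusted p = 0.0330), which is about where the median of all genes lay on that scale, at 0.57 and 0.51.

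Hp varied widely between treated rats. At 14 weeks it stood at 16200, 14429, 13991 and 13764 CPM without DEN and at 16135, 10500, 8997 and 10600 CPM in NT liver, the high value being that of F06. Nodules of 14 weeks ranged from 7166 to 18422 CPM (median 10246), and both F06 nodules, at 16403 and 18422 CPM, lay above the other 6. The log2 fold change in those nodules was −0.40 (SE 0.23, edgeR adjusted p = 0.165). Without F06 it was −0.67 (edgeR adjusted p = 4.64e-05) and passed the limit for nodules, 0.5 on the log2 scale and an adjusted p of 0.05. By library totals the sign turned for all 4 rats together, at 0.16, and Hp was not called.

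The rat names begin with F or H, and the labels used here do not say what the letters stand for. All controls were H rats. Hp was higher in the F rats than in the H rats of every treated group, for example 17806 and 19930 against 13136 and 14417 CPM in NT liver of 8 weeks. In NT liver of 14 weeks F06 lay above the 3 H rats for all 9 members tested. In the nodules of that time the mean of F06 was lowest for A1i3, Pzp and Crp and highest for the other 6. Whatever the letters mark, its part in these values was not tested beyond leaving F rats out.

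Cp, ceruloplasmin, a copper-carrying ferroxidase, and Hpx, hemopexin, which binds free heme, did not pass the limits in NT liver. At 8 weeks they were at −0.43 (edgeR adjusted p = 0.00617) and −0.31 (edgeR adjusted p = 0.0358), all 4 treated rats lying below every control for both. At 14 weeks Cp was at −0.21 and Hpx at −0.43 (edgeR adjusted p = 0.0147). Cp stood at 3622, 2877, 3175 and 3191 CPM without DEN at 14 weeks, at 3559, 2805, 2303 and 2262 CPM in NT liver, and at 1771 to 2481 CPM (median 2164) in nodules. Hpx stood at 9385, 9530, 8444 and 9141 CPM, at 8254, 6720, 5941 and 5803 CPM, and at 4501 to 7484 CPM (median 6077) in the same 3 sets. Against no DEN the nodules of 14 weeks differed by −0.61 for Cp (SE 0.11, edgeR adjusted p = 0.00144) and −0.63 for Hpx (SE 0.10, edgeR adjusted p = 0.00100). By library totals these were −0.04 and −0.06, and neither was called.

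Itih3 and Itih4 encode heavy chains of the inter-alpha-trypsin inhibitor family, that of Itih3 becoming linked to hyaluronan. Itih3 stood at 6868, 6254, 6363 and 7017 CPM without DEN at 14 weeks and at 5874, 3890, 3353 and 4226 CPM in NT liver, F06 again being the highest. In nodules of 14 weeks it ranged from 2644 to 4796 CPM (median 3389), at −0.95 (SE 0.15, edgeR adjusted p = 0.000869). Itih4 gave 5341, 4981, 4507 and 5159 CPM without DEN, 5919, 3494, 2561 and 2987 CPM in NT liver and 1875 to 4336 CPM (median 2810) in nodules, at −0.87 (SE 0.17, edgeR adjusted p = 0.00301). At 20 weeks nodules differed by −0.86 for Itih3 and −0.89 for Itih4. By library totals all 4 values lay between −0.30 and −0.41 and none was called.

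Counted together, 7 of the 9 members tested fell in nodules against no DEN liver at 14 weeks (A1i3, Crp, Pzp, Itih3, Itih4, Hpx and Cp), when 15.2% of 11316 genes were called lower and 39.1% in either direction. At 20 weeks 6 fell (the same without Hpx), against 15.2% of 11199 genes called lower and 38.8% in all. None of the 9 rose. By library totals 3 members fell and 1 rose at 14 weeks, and 2 fell and 1 rose at 20 weeks, A1i3 and Crp being lower and Orm1 higher at both times. On that scale 56.1% of all genes were called at 14 weeks (52.3% higher and 3.73% lower) and 52.7% at 20 weeks (48.5% higher and 4.26% lower). In NT liver the called members were 1 at 14 weeks (A1i3, with 15.2% of 11016 genes called in all and 2.1% lower) and 0 at 20 weeks, when 5.22% of 10827 genes were called (4.89% higher) and 4 of the 9 members had an unadjusted edgeR p under 0.05, against 40.2% of all genes tested. A2m was not among these 9. DESeq2 called it higher in NT liver of 20 weeks, the only member it called there (5.62% of all genes), and in nodules of 14 and 20 weeks. With no filter on low genes edgeR called A2m higher in NT liver of 14 weeks and in nodules of both times, and not in NT liver of 20 weeks (edgeR adjusted p = 0.03).

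Rats of treated and control groups did not overlap, all treated rats being lower, for 6 members in NT liver at 8 weeks (16.1% of all genes), 5 at 14 weeks (24.7%) and 3 at 20 weeks (12.1%). In nodules this held for 7 members at 14 weeks (23.5%) and 6 at 20 weeks (21.4%). None of these 9 members had all treated rats above all controls, as 17.9, 25.9 and 16.2% of all genes did in NT liver at 8, 14 and 20 weeks and 27.9 and 27.5% in nodules at 14 and 20 weeks. A2m, the member too low for the test across all genes, did so in NT liver and in nodules at both 14 and 20 weeks.

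**Figure D3:**
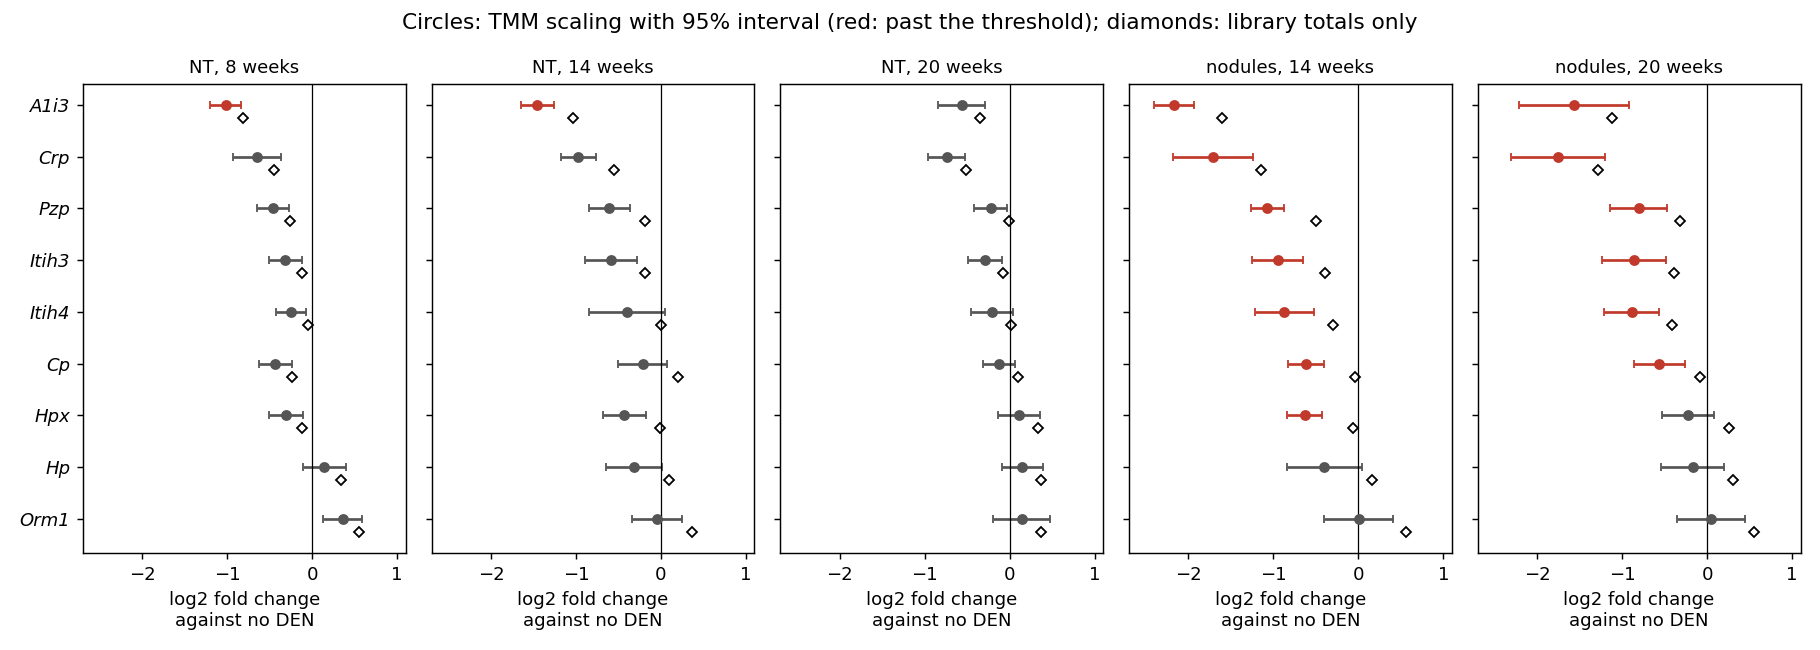
log2 fold change (horizontal axes) of 9 members (rows) against no DEN liver of the same age in NT liver and nodules. Circles are TMM-scaled edgeR values with 95% intervals, red where past the limits, and diamonds are values by library totals, which lie to the right of the circles in every panel. A1i3, Crp, Pzp and Itih3 stay left of 0 on both scales, Pzp only just by library totals in NT liver of 20 weeks (−0.0037).

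Ratios of reads within a library do not depend on scaling. A1i3 gave 15.2 ± 2.75 reads (SD, n = 4 rats) per Orm1 read without DEN at 14 weeks, 5.70 ± 0.721 in NT liver and 3.52 ± 1.19 in nodules. At 20 weeks these were 14.2 ± 2.47, 9.21 ± 3.23 and 4.97 ± 2.52. The ratio of A1i3 to Hp went from 0.783 ± 0.0719 to 0.367 ± 0.0656 and 0.256 ± 0.0967 at 14 weeks, and that of Crp to Hp from 0.365 ± 0.0156 to 0.238 ± 0.0361 and 0.169 ± 0.0837. In each of these ratios at 14 weeks the NT samples lay below all controls.

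**Figure D4:**
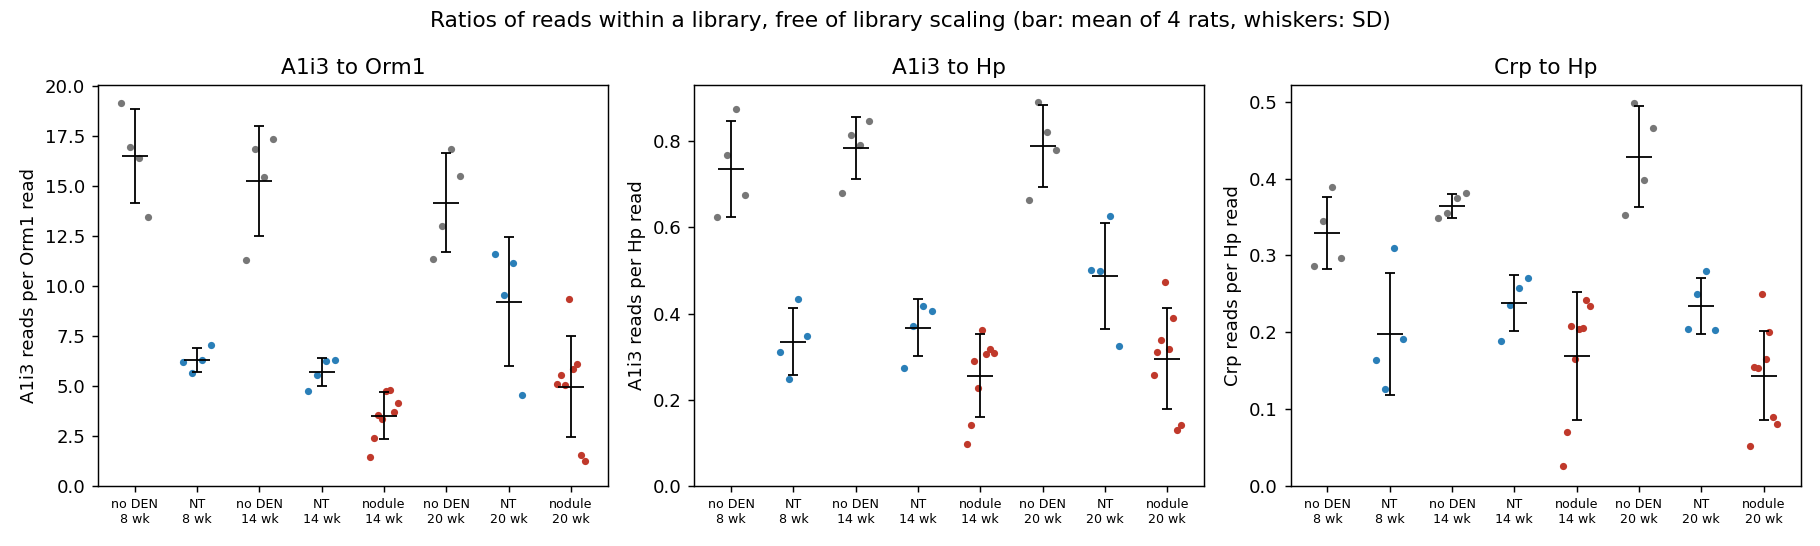
Reads of one member per read of another (vertical axes, from 0) in each library by group (horizontal axes), in grey for no DEN, blue for NT and red for nodules; bars are means of 4 rats and whiskers SD. The ratio of A1i3 to Orm1 at 8 weeks lies between 13.5 and 19.2 without DEN and between 5.64 and 7.06 in NT liver.

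Whether nodules differed from the NT liver around them was asked within each time. No member and no gene passed (0% of 11466 genes at 14 weeks and 0% of 11546 at 20 weeks), although 3 members at 14 weeks (A1i3, Pzp and Crp) and 6 at 20 weeks (these with Cp, Itih3 and Itih4) had an unadjusted edgeR p under 0.05, against 11.8% and 24% of all genes. At 14 weeks DESeq2 called A1i3 (and 0.248% of all genes), and at 20 weeks it called 5 members (and 6.37% of all genes). NT liver and nodules came from the same rats, and with the rat as a block 5 members were called lower in nodules at 20 weeks, when 5.46% of genes were called lower and 14.7% in all. They were A1i3 (−1.12, SE 0.21, edgeR adjusted p = 0.00303), Crp (−1.10, SE 0.20, edgeR adjusted p = 0.00283), Itih4 (−0.68), Itih3 (−0.59) and Pzp (−0.59). At 14 weeks the paired fit called 0 of 9 members, A1i3 being at −0.70 (SE 0.11, edgeR adjusted p = 0.167).

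The rats' nodule and NT values did not overlap, nodules being lower, for A1i3, Pzp and Crp at 14 weeks (6.71% of all genes) and for Pzp, Crp, Cp, Itih3 and Itih4 at 20 weeks (4.62%). None had all nodule values above NT liver (4.88 and 7.73% of all genes at 14 and 20 weeks). A1i3 overlapped at 20 weeks where NT liver of H28, at 5317 CPM, lay within the range of the nodules. Taken singly, nodules also overlapped NT liver for Pzp and Crp at 14 weeks and for Pzp, Crp, Cp and Itih3 at 20 weeks.

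By range, nodules also differed from each other more than NT samples did. This held for every member tested at 20 weeks and for every one but Cp at 14 weeks, where Itih4 was about equal. Crp spanned 6.36-fold from the lowest to the highest nodule at 14 weeks and 5.80-fold at 20 weeks, against 1.31-fold and 1.08-fold among NT samples. A1i3 spanned 2.25-fold and 6.30-fold, against 1.17-fold and 1.62-fold. At 20 weeks Orm1 spanned 3.04-fold and Itih3 2.62-fold in nodules, against 1.67-fold and 1.19-fold. There were 8 nodules and 4 NT samples in each set, and the larger number itself widens a range, so these spans were not tested.

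At 14 weeks the first nodule of F06 had the lowest A1i3 (1587 CPM) and the lowest Crp (427 CPM) of all 8 and the highest Orm1 (1088 CPM), and Crp was 3.00-fold higher in its second nodule. At 20 weeks the second nodule of H28 was lowest for both A1i3 (1034 CPM) and Crp (595 CPM), and the first nodule of H28 had the highest Orm1 (1484 CPM) of all 40 libraries. The 2 nodules of H28 differed 2.18-fold in A1i3, 2.61-fold in Crp and 2.38-fold in Hp, all higher in the first. In H22 at 14 weeks the 2 nodules differed by 1.12-fold in A1i3 and 1.33-fold in Crp.

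Other acute-phase genes were counted in the same fits. Lcn2, another positive reactant, was too low for these fits and is not in the counts. The paper listed it as higher in tumors than in untreated liver at 14 and 20 weeks. Of 20 other positive reactants tested in nodules of 14 weeks, 14 fell and 5 rose, when 15.2% of all genes were called lower and 23.9% higher, so the share that rose was close to that of all genes. Their median log2 fold change was −0.75 against 0.00 for all genes. Of 13 negative reactants, 10 fell and 1 rose, with a median of −0.88. By library totals these counts were 2 lower and 5 higher for positive reactants and 3 lower and 1 higher for negative ones. On that scale 3.73% of all genes were called lower and 52.3% higher, so these counts and the shares beside them both changed with the scaling. At 20 weeks, when 15.2% of all genes were called lower and 23.6% higher, 10 positive reactants fell and 4 rose (2 lower and 6 higher by library totals), while 10 negative reactants fell and 1 rose (3 lower and 1 higher by library totals). By library totals 4.26% of all genes were called lower and 48.5% higher at that time.

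The 5 positive reactants that rose in nodules of 14 weeks were called higher by library totals too. Mt2A and Mt1a, metallothioneins that bind zinc and copper, rose by 3.5 (SE 0.46, edgeR adjusted p = 0.000297) and 2.19 (SE 0.32) on the log2 scale in nodules of 14 weeks. Lbp, which carries bacterial lipopolysaccharide to its receptors, averaged 43.4 ± 6.07 CPM (SD, n = 4) without DEN at 14 weeks, 109 ± 19.8 CPM in NT liver and 127 ± 18.7 CPM in nodules. It rose by 1.35 in NT liver and 1.53 in nodules at 14 weeks, and by 1.55 and 1.89 at 20 weeks (edgeR adjusted p = 2.01e-05 for the last). Vwf, made by endothelium, rose by 1.34 in nodules of 14 weeks, when 5 of 6 endothelial markers, Vwf among them, were called higher, and F8, coagulation factor VIII, rose by 0.62 and 0.65 at 14 and 20 weeks.

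The positive reactants lowest in nodules of 14 weeks were Serpina3c (−1.51), Saa4 (−1.19), Apcs (−0.95) and Serpina3n (−0.94), of which Apcs (−0.39) and Serpina3n (−0.38) were not called by library totals. Fga, Fgb and Fgg, the chains of fibrinogen, also fell, by 0.77, 0.90 and 0.93 on the log2 scale, and were at −0.20, −0.34 and −0.37 by library totals, where none was called. Among negative reactants Serpina4 fell by 1.81, Igf1, the circulating growth factor, by 1.53, Serpina6, the corticosteroid carrier, by 1.33, and Ttr, transthyretin, by 1.01 (−0.45 and not called by library totals). At 20 weeks Pon1, an esterase carried on high-density lipoprotein, fell by 0.90 (−0.42 and not called by library totals). Alb, albumin, averaged 217030 ± 11154 CPM without DEN and 119640 ± 11718 CPM in nodules at 14 weeks, with a log2 fold change of −0.88 (−0.32 by library totals). Apoa1, the main protein of high-density lipoprotein, was the exception, and rose by 0.98 at 14 weeks and 1.31 at 20 weeks.

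In NT liver of 14 weeks, when 13.1% of all genes were called higher and 2.1% lower, 4 of 20 positive reactants rose (Mt2A, Mt1a, Lbp and Vwf) and 1 fell (Serpina3c), while 5 of 13 negative reactants fell (Serpina4, Serpina6, Igf1, Apom and Ttr). By library totals the same 4 rose, Serpina3c was no longer called, and of the 5 only Serpina4 stayed past the limit. That scaling raised the median of all genes, and the share of all genes it called in NT liver is not given here. Ttr went from 13860 ± 1810 to 6796 ± 1400 CPM (SD, n = 4). At 20 weeks Lbp alone rose among the positive reactants of NT liver and no negative reactant was called, against 4.89% of all genes called higher and 0.333% lower. By library totals Lbp rose too (1.78), and so did the negative reactant Apoa1 (1.09). At 8 weeks 1 positive reactant fell, Cd14 (−1.25), and no negative reactant was called, against 0.62% of all genes called lower and 7.29% higher. By library totals Cd14 stayed past the limits (−1.07) and Vwf rose (1.02). Cd14 and Vwf also differed with age in untreated rats, as given below.

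The same lists were counted in the tests between times. From 8 to 14 weeks, when 4.8% of all genes were called downward and 4.16% upward, the difference of NT liver from untreated rats moved downward for 7 of 13 negative reactants, led by Ttr (−1.04), Serpina4 (−1.01), Apom (−0.96) and Serpina6 (−0.75). Of 20 positive reactants 3 moved downward, Hamp (−1.15), which limits iron export, Serpina1 (−0.66) and Serpina3c (−0.51), and Lbp moved upward (1.11). Elsewhere Ambp (−0.66) and Il11ra1 (−0.60) moved downward and Osmr (1.44) and Nfkb1 (0.32) upward. By library totals 5 negative reactants moved downward and 1 upward, and 2 positive reactants downward and 3 upward, against 1.68% of all genes downward and 14.8% upward (16.5% in all).

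**Figure D5:**
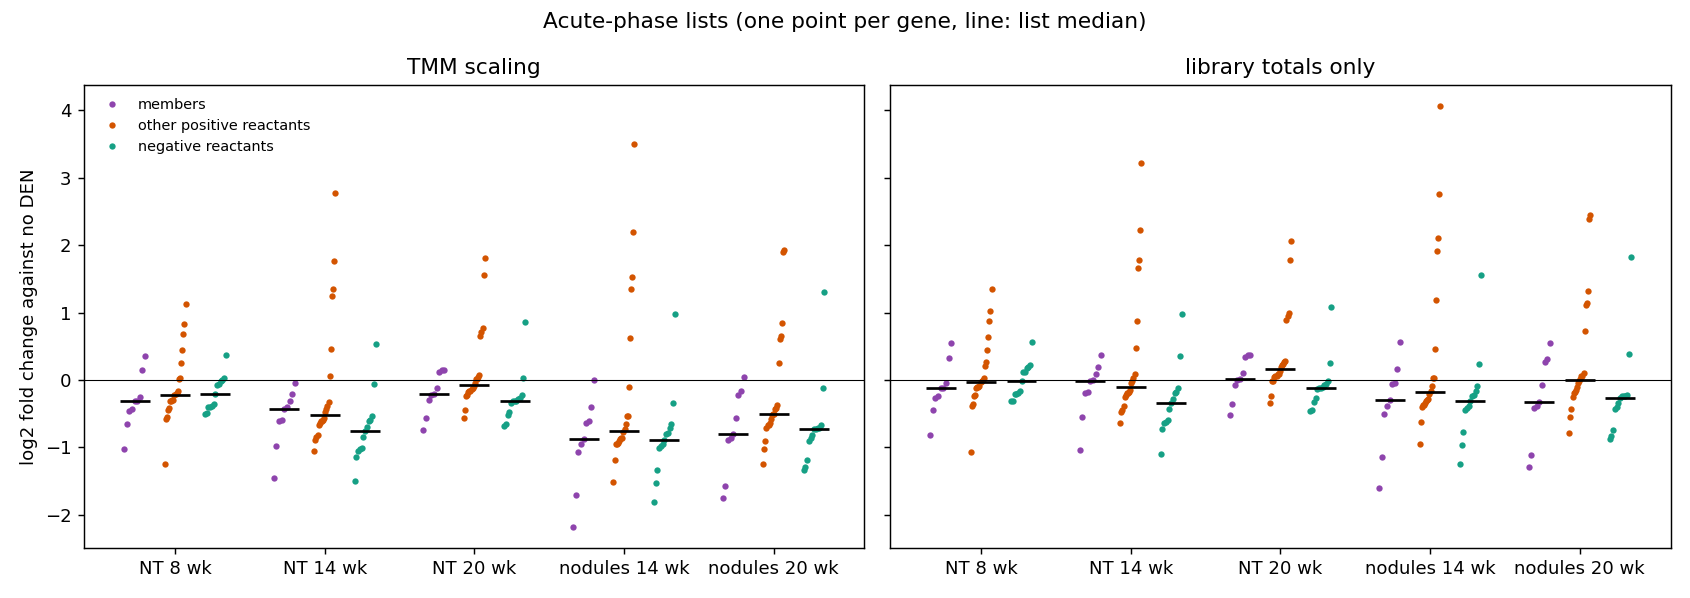
log2 fold change against no DEN liver (vertical axis) of the members, the other positive reactants and the negative reactants in 5 contrasts (horizontal axis), by TMM scaling on the left and by library totals on the right; each point is a gene and the line the list's median. In nodules of 14 weeks the medians are −0.87, −0.75 and −0.88 on the left and −0.30, −0.18 and −0.32 on the right, and Mt2A, Mt1a, Lbp and Vwf stand above 1 on both sides.

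Of the upstream cytokine genes, Il6 itself was at 0 or 1 read in every library, so its level could not be compared. Osmr, the receptor subunit for the interleukin-6 relative oncostatin M, rose in every contrast with no DEN. It averaged 0.640 ± 0.146 CPM (SD, n = 4) without DEN at 14 weeks, 4.73 ± 1.39 CPM in NT liver and 4.31 ± 2.20 CPM in nodules. Its log2 fold changes in NT liver were 1.45, 2.89 and 1.62 at 8, 14 and 20 weeks, and in nodules 2.73 and 2.33. Socs1, which damps cytokine signalling, rose by 1.51 and 1.79 in nodules of 14 and 20 weeks, and Cebpd, a C/EBP factor induced in the acute phase, by 0.96 and 0.53. Il1b, interleukin-1 beta, rose by 1.11 in NT liver of 8 weeks.

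Il6r, the interleukin-6 receptor, fell by 0.93 and 1.07 on the log2 scale in nodules, and the hepatocyte factors Hnf4a (−0.88 and −1.14) and Cebpa (−0.99 and −1.08) fell with it. By library totals these 3 stayed past the limits at 20 weeks and not at 14 weeks. Nr3c1, the glucocorticoid receptor, fell by 1.15 and 0.88, and by library totals was called at 14 weeks (−0.58) and not at 20 weeks (−0.41). Il1r1, an interleukin-1 receptor, fell by 0.95 and 0.92, and neither call held by library totals. Onecut1, a hepatocyte transcription factor, fell by 1.98 at 14 weeks (SE 0.66, edgeR adjusted p = 0.0332), was not called there by library totals (−1.39), and was at 0.60 (SE 0.66) and not called at 20 weeks. Stat3, which carries the interleukin-6 signal to the nucleus, was at −0.13 and 0.08 and Socs3, its feedback inhibitor, at 0.88 (SE 0.40, edgeR adjusted p = 0.093) and −0.07; Cebpb was at −0.07 and −0.37, and none of the 3 passed both limits. By library totals Socs3 was called at 14 weeks (1.44) and Stat3 at 20 weeks (0.59, where the median of all genes was 0.51).

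Among the other alpha-macroglobulin and inter-alpha-inhibitor genes all 7 tested fell in nodules of 14 weeks and 6 at 20 weeks, when 15.2% of all genes were called lower at each time, and 5 did so at each time by library totals, against 3.73 and 4.26% of all genes. They included C4a, a complement protein of the same superfamily (−1.52 and −1.21), Cpamd8, another member of that superfamily (−1.31 and −1.06), and Itih1 (−1.09 and −0.99). Lrp1, the receptor that clears protease-bound alpha-macroglobulins, went from 935 ± 74.1 CPM (SD, n = 4) without DEN to 369 ± 56.9 CPM in nodules at 14 weeks, with log2 fold changes of −1.37 and −1.06 at 14 and 20 weeks. Cd163, which takes up the haptoglobin-hemoglobin complex, did not pass in nodules, though by library totals it was called higher at 20 weeks (0.70, where the median of all genes was 0.51). Lrp2, a related endocytic receptor, fell by 0.98 and 1.05, and Scarb1, the receptor for high-density lipoprotein, by 0.52 at 14 weeks. Hmox1, which breaks down heme, rose by 0.54 and 0.81, and Tnfaip6, which transfers inter-alpha-inhibitor heavy chains to hyaluronan, by 1.30 at 14 weeks. By library totals Lrp2 was called at 20 weeks and not at 14 weeks, Scarb1 was not called, and Hmox1 and Tnfaip6 were called.

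Markers of other cell types moved in the same libraries. The summed CPM of 8 hepatocyte markers (Fgb is also in the list of positive reactants) ranged from 26332 to 28648 without DEN at 14 weeks, from 16071 to 22356 in NT liver and from 12981 to 19070 in nodules, and 7 of the 8 were called lower in nodules at both times. The sum of 8 stellate cell and fibroblast markers ranged from 194 to 245 CPM, 363 to 478 CPM and 401 to 538 CPM in these sets, with Col1a2 at 0 in every library. The sum of 3 cholangiocyte markers ranged from 16.1 to 23.4 CPM, 36.2 to 86.4 CPM and 55.5 to 149 CPM. The sum of 6 endothelial markers ranged from 92.0 to 141 CPM, 190 to 238 CPM and 183 to 242 CPM, and 4 of the 6 were called higher in NT liver of 14 weeks and 5 in nodules at each time. Of the leukocyte markers 4 of 7 tested were called higher in nodules at each time, and of 7 macrophage markers 1 at 14 weeks and 2 at 20 weeks. In NT liver of 8 weeks, where A1i3 was called, 0 of 8 hepatocyte markers were called (sum 26221 to 28149 CPM without DEN and 20727 to 23389 CPM with it), while 3 of 3 neutrophil, 3 of 7 leukocyte and 5 of 7 stellate cell and fibroblast markers were called higher. The part of these cell types in the values of Vwf and in the lower values of A1i3, Crp and the other members was not tested.

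Over the 40 libraries, the genes whose log2 CPM followed A1i3 most closely among 10153 genes were Mug1 (Pearson r = 0.979), Slco1a1 (0.971), Me3 (0.969), Sult1c3 (0.968) and Agmo (0.965). For Pzp they were C8a (0.964), Fn1 (0.959), Ghr (0.955), Slc39a1 (0.953) and RGD1564614 (0.949), and for A2m Ugt1a6 (0.812), Nefl (0.810), Ugt2b7 (0.810), Gbp5 (0.808) and Map1b (0.808). These libraries share treatment groups, rats and scaling, so the values describe the set as a whole.

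In untreated rats no change of a member with age was detected. Across 8, 14 and 20 weeks 0 of 9 members passed (edgeR F test, 0.227% of 10566 genes called), the lowest unadjusted p being 0.0128 for Hpx and 0.0192 for Crp. Whether any shift with age was absent cannot be said at this sample size. The largest difference of 14 or 20 weeks from 8 weeks was 0.28 on the log2 scale, for Crp. Among the other positive reactants Cd14 and Vwf were called across ages (edgeR adjusted p = 0.0485 and 0.0205). Their larger difference from 8 weeks was 1.15 and 0.85 in size.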

How the data were processed

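RNA from 40 liver libraries of 24 rats (TruSeq Stranded mRNA, paired-end) was aligned by the authors with STAR 2.7.1a to rn6 and counted per gene with HTSeq on the stranded setting, reads that map to several places or to several genes being left out. The deposited values are raw read-pair counts per gene, with no normalization, 1 file per library. Rows that name no gene stayed out of all sums and tests; of all read pairs, 21.5 to 34.5% lay outside exons, 7.96 to 16.3% aligned to several places and 0.816 to 1.56% were ambiguous. No column of another series was present.

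Groups came from the labels. Counts of both nodules from one animal were summed, which makes n the number of rats. Counts were filtered (filterByExpr), scaled by TMM and tested across all genes with the quasi-likelihood test of edgeR 4.0.16 (R 4.3.3) within the groups compared, with Benjamini-Hochberg adjustment over all genes tested. Calls needed a log2 fold change of 1 and an adjusted p of 0.01 for NT liver, and 0.5 and 0.05 for nodules. The changes between times and the age test needed an adjusted p of 0.05. A2m was tested by two-sided exact permutation of CPM by library totals, with 0.0286 as the smallest p. Alternatives were DESeq2 1.42.0 (the authors named DESeq2 1.22.2), other scalings, no filter, all groups in one fit, single nodules, each rat left out, no F rats and the rat as a block. The block was tried because NT liver and nodules of one rat carry its name and deviated together over 10153 genes (r = 0.522 at 14 weeks and 0.598 at 20 weeks; lowest rat 0.390). No pair of libraries of a group was a duplicate (lowest chi-square per degree of freedom 12.9). The steps were tested on simulated counts.

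All 10 members were named. From other lists chosen by role, up to 4 called genes of largest fold per direction and contrast were named, with the signal genes Il6, Il6r, Stat3, Socs3, Cebpb and Cebpd; others named (Fga, Fgb, Fgg, Alb, Itih1 and Cd163) were chosen after their values were seen. A gene that this rule names is not reported here. Nearest genes had at least 1 CPM on average (log2 CPM with a prior count of 2). The members and lists were chosen with earlier results of these data known. Kng2, Cd109, Ovos, C5, Itih2 and Itih5 were not analysed here.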

Additional observations from a re-analysis of the deposited data

Results flagged for a closer look

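Of 72 sets of libraries (9 members in 8 groups) 4 held a library far from the others by Dixon's criterion, where chance alone gives about 1 in 20, or 3.6. Orm1 was low in NT liver of H18 after 8 weeks of DEN (708 CPM, the other 3 rats between 875 and 902 CPM). It was high in the untreated rat H09 of 14 weeks (976 CPM, the others between 671 and 716 CPM) and in NT liver of H28 at 20 weeks (1168 CPM, the others between 701 and 747 CPM). Itih4 was high in nodule 2 of F06 at 14 weeks (4336 CPM, the other 7 nodules between 1875 and 3037 CPM).

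For A1i3 the difference between NT liver and no DEN liver itself differed between times: by −0.44 on the log2 scale from 8 to 14 weeks and by 0.90 from 14 to 20 weeks, both by the interaction test given above. The first was lost by library totals, both with all 8 groups in one fit, the first also without any 1 of 9 rats and the second without any 1 of 4. The rats of each time were different animals.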

How the results depend on the processing

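Among the counts of members called, 158 of 196 recomputed values stayed within 1.5 times the reported count; the others follow, and where no cause is shown by the way an alternative was built, the cause was not tested. In NT liver of 8 weeks the call of A1i3, reported at −1.02, was lost (0 members) with upper-quartile scaling, with library totals and without F rats, and leaving out 1 rat gave 0 to 1 members (0 without F10, H07 or H18, where A1i3 was −0.98, −0.98 and −0.99). In NT liver of 14 weeks there were 2 members with no filter on low genes (A2m added, since the filter removed it), with all 8 groups in one fit and without F rats (Crp added), and 1 to 2 when 1 rat was left out, 2 without F06 or H23. DESeq2 called 1 member in NT liver of 20 weeks, A2m. Scaling by library totals, an alternative chosen after seeing the data, called 4 members in nodules of 14 weeks and 3 in those of 20 weeks, when 56.1 and 52.7% of all genes were called on that scale.

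For nodules against NT liver, DESeq2 called 1 member at 14 weeks. At 20 weeks DESeq2, all 8 groups in one fit, and the fit with the rat as a replicate block each called 5, the same A1i3, Pzp, Crp, Itih3 and Itih4; nodule 1 alone gave 2 (Pzp and Crp) and leaving out 1 rat 0 to 1 (Crp without H25). The block changed no other call. For the change between 8 and 14 weeks there were 0 members with all 8 groups in one fit and with library totals, and 0 to 5 when 1 rat was left out: 5 without F06, and 0 without F09, H05, H06, H08, H10, H11, H12, H21 or H22. For the change between 14 and 20 weeks there were 0 with all 8 groups in one fit and 0 to 4 when 1 rat was left out: 4 without F06, and 0 without F03, H10, H21 or H22. The share of all genes called with 1 rat left out is not given here.

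Of the single values, only some that had not passed a limit changed sign. By library totals these were, in NT liver of 14 weeks, Orm1 (0.36), Hp (0.091), Cp (0.20) and Itih4 (0.0028), and, in NT liver of 20 weeks, Cp (0.10) and Itih4 (0.014). In nodules they were Hp (0.16 at 14 weeks, 0.31 at 20 weeks) and Hpx (0.26 at 20 weeks), and against NT liver Hp (0.067 at 14 weeks) and Orm1 (0.18 at 20 weeks). In the changes between times they were Pzp (0.074), Hpx (0.10) and Itih4 (0.053) from 8 to 14 weeks and Cp (−0.10) from 14 to 20 weeks. Orm1 also changed sign with upper-quartile scaling in NT liver of 14 weeks (0.047), with DESeq2 in nodules of 14 weeks (−0.0022), without F rats there (−0.17), with nodule 1 alone there (−0.042) and against NT liver at 20 weeks (0.19), and with nodule 2 alone in nodules of 20 weeks (−0.16). Hp did so without F rats in NT liver of 8 weeks (−0.081), with nodule 1 alone at 20 weeks (0.082) and with nodule 2 alone against NT liver at 14 weeks (0.12). With 1 rat left out, Orm1 ranged from −0.20 to 0.080 in NT liver of 14 weeks (above 0 without H09 or H22) and from −0.073 to 0.23 in that of 20 weeks (below 0 without H28), from −0.17 to 0.14 in nodules of 14 weeks (below 0 without F06, H10, H11 or H12) and from −0.14 to 0.20 in those of 20 weeks (below 0 without H15 or H28), from −0.15 to 0.0057 in nodules against NT liver at 20 weeks (above 0 without H26), and from −0.014 to 0.33 in the change from 14 to 20 weeks (below 0 without H28).

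With 4 rats a group, small changes in Orm1 and Hp were not detectable, and A2m rested on 0 to 23 reads a library. One CPM at the median depth is 30.5 read pairs, a relative counting error of 18.1%, so that counting adds little to the spread between rats for the 9 other members.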
